A study of Gossypium hirsutum with 4 samples.

Results

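A total of 689 sites on the chromosomes of upland cotton carried a D53 peak of score 10 or more and no peak in the immunoprecipitate labelled B. They were taken from the D53 peak list as the rows on chromosomes A01 to A13 and D01 to D13 with a score of at least 10 and no base in common with any B peak. They are referred to here as the D53-only peaks. They made up 689 of the 18015 peaks in the D53 list, and 689 of the 37415 peaks in both lists together. They were thus selected on their score and on the absence of a B peak, so both are described below and not tested. Comparisons with weaker D53 peaks below are comparisons between classes of score.

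The study used leaves of Gossypium hirsutum and chromatin immunoprecipitation followed by sequencing (ChIP-seq), in which DNA bound by a tagged protein is pulled down with an antibody and compared with input chromatin. There were 4 libraries, namely the D53 immunoprecipitate, its input, the B immunoprecipitate and its input, with FLAG given as the antibody for each. Each was a single library, and the labels name no genotype, plant age, treatment, promoter or tag construct, nor what B stands for. Read depth is unknown, because the deposited lists hold only peak positions and 1 whole-number score per peak, with its definition not given in the sources used here.

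D53 is a repressor of strigolactone signalling, first described in rice. Strigolactones are plant hormones known for restraining shoot branching, and perception of the hormone by the receptor D14, together with an F-box protein, leads to ubiquitination and degradation of D53. D53 and its Arabidopsis relatives of the SMXL family carry an EAR motif that recruits TOPLESS corepressors, and an Arabidopsis relative can also bind DNA itself. Upland cotton is an allotetraploid with an A and a D subgenome, of which the A subgenome is the larger and the richer in repeats. Genes in cotton lie more densely towards the chromosome ends than in the middle.

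On the 26 chromosomes, 2985 D53 peaks reached a score of 10, and 23.1% of these had no base in common with a B peak (689 of 2985). Among D53 chromosome peaks of score under 10 that share was 81.2% (5227 of 6435), and over all D53 chromosome peaks it was 62.8%. In the higher score bands fewer peaks lacked a B partner. The share without one was 48.2% at scores of 10 and 11, 36.7% at 12 to 14, 23.1% at 15 to 19, 7.63% at 20 to 49 and 4.37% at 50 and above. The absence of a partner means that no B peak was listed there. Without read counts, a weak B signal that was not called and a lack of signal cannot be told apart.

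Most D53-only peaks had low scores and a small group had very high ones. The median score was 12 (quartiles 11 and 15), and 599 of the 689 scored under 20. Scores of 10 or 11 were held by 277 peaks, or 40.2%. At the upper end, 90 peaks scored 20 or more and 18 scored 50 or more, up to 150. Just inside the limit, the 149 peaks of score 10 had a median width of 272 bp, with 76.5% on A chromosomes and 73.8% in the central 50% of the span. Just outside it, the 221 D53 peaks of score 9 without a B partner had a median width of 276 bp, with 71.0% on A and 62.4% in the central part.

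The D53-only peaks lay mainly on the A chromosomes. Of the 689, 525 were on A and 164 on D, so the A share was 76.2% (95% Wilson interval 72.9 to 79.2), while the A chromosomes made up 60.03% of the span. Over all D53 chromosome peaks the A share was 68.6%. The span of a chromosome is its highest peak end in either list, since chromosome lengths were not used here. Intervals cover counting error only, and neighbouring peaks are not independent.

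Density was 0.456 ± 0.093 D53-only peaks per Mb of span on A chromosomes (mean ± SD, n = 13 chromosomes). On D chromosomes it was 0.211 ± 0.053 (n = 13), so A was 2.16 times as dense. The values did not overlap, since the lowest A chromosome, A12, had 0.320 and the highest D chromosome, D12, had 0.306 per Mb. The difference of 0.246 per Mb had a two-sided permutation p of 2e-05 over chromosomes, the smallest that 100000 resamples can give (adjusted p = 5e-05 over 5 tests). The A chromosome was denser than the D chromosome of the same number in 13 of 13 pairs. The densest chromosome was A04 with 41 peaks, or 0.652 per Mb, followed by A01 with 55 and A13 with 44. The sparsest was D07 with 6 peaks, or 0.110 per Mb. This test compares chromosomes within 1 list and says nothing about how another D53 library would vary.

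**Figure D1:**
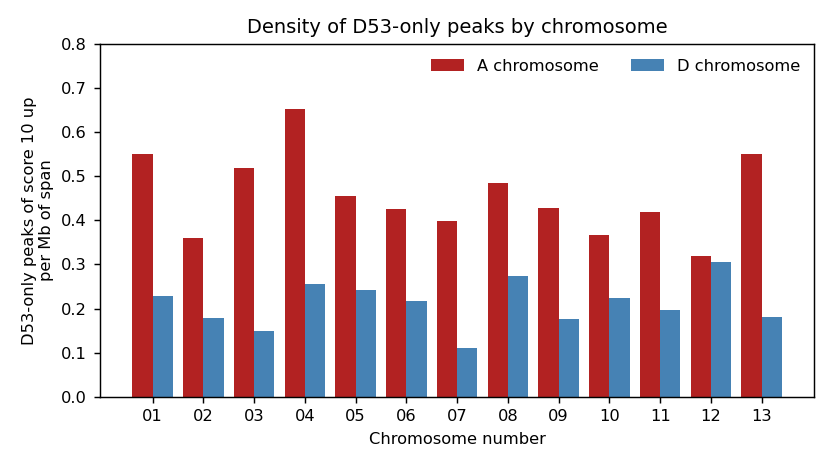
D53-only peaks of score 10 up per Mb of chromosome span (vertical axis) on each A chromosome (red bars) and the D chromosome of the same number (blue bars). Every red bar is higher than its blue neighbour, from 0.320 against 0.306 per Mb for number 12 to 0.652 against 0.255 for number 04.

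The excess on A was larger than that of weaker D53 peaks without a B partner. Over the 13 chromosome pairs, the log2 ratio of A to D counts, with 0.5 added to each count, averaged 1.67 ± 0.52 (SD) for D53-only peaks of score 10 up and 0.97 ± 0.31 for D53 peaks of score under 10 without a partner. The difference of 0.70 was in the same direction in 12 of 13 pairs (two-sided permutation p = 0.00073 over all sign flips, adjusted p = 0.0012). Both sets lack a B partner and are divided by the score limit alone. The test therefore compares classes of score, not peaks with and without a partner, and it was added after the data were seen. The exception was pair 12, with 0.62 against 1.03. D53 peaks of score 10 up that did overlap a B peak, referred to as shared peaks, had a mean log2 ratio of 1.54 ± 0.57. Their difference from the D53-only peaks, 0.13, was well within the spread between pairs (higher in 8 of 13 pairs, permutation p = 0.37, adjusted p = 0.46). The A share was 73.2% for the 2296 shared peaks (95% Wilson interval 71.3 to 74.9) and 66.1% for the 5227 weaker peaks (64.8 to 67.4).

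Along the chromosomes the D53-only peaks were concentrated away from the ends. The central 50% of the span held 498 of 689, or 72.3% (95% Wilson interval 68.8 to 75.5). The outer 10% held 34 peaks at the low-coordinate end and 26 at the other, against 78 to 107 in each 10% step from 20% to 70% of the span. The intervals of both subgenomes overlapped, with 71.4% of A peaks (67.4 to 75.1) and 75% of D peaks (67.9 to 81) in the central part. Chromosome A06 departed from this, with 20 of its 44 peaks, or 45.5%, in the central part. The highest share was 85.7%, on D01 with 12 of 14 and on D03 with 6 of 7. Among the 18 D53-only peaks of score 50 up, only 10 were central, or 55.6% (33.7 to 75.4). For shared peaks of that score the central share was 54.3% (49.4 to 59.2).

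**Figure D2:**
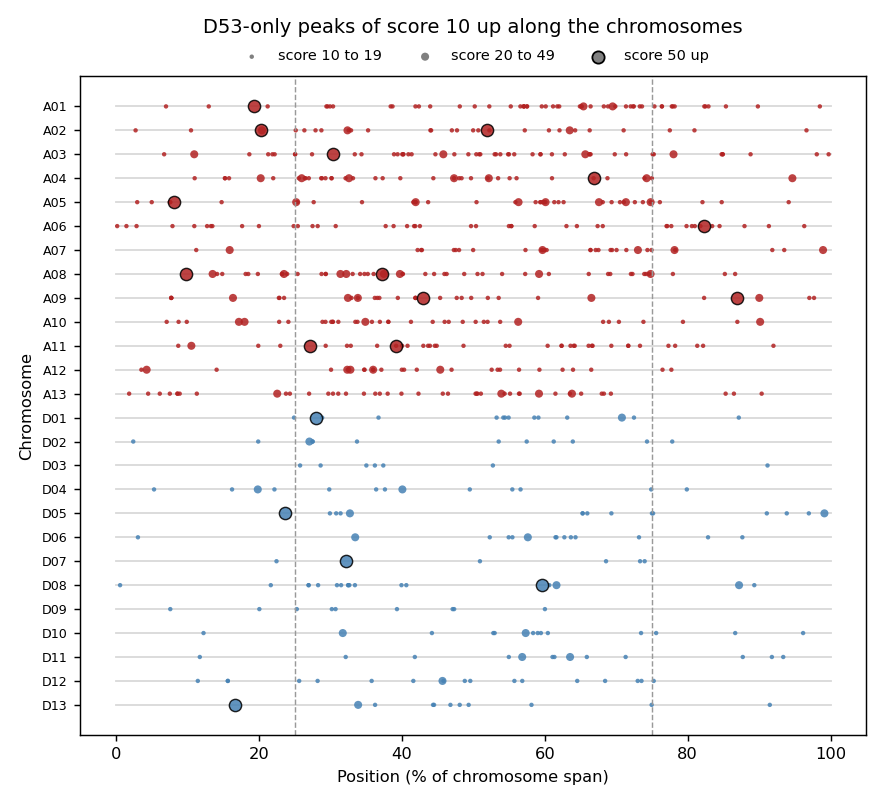
Position of each D53-only peak of score 10 up along its chromosome, as % of chromosome span (horizontal axis), for the 26 chromosomes (rows, A in red and D in blue). Dot size gives the score band, and outlined dots mark the 18 peaks of score 50 up; dashed lines bound the central 50% of the span, which holds 498 of the 689 peaks.

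Weaker D53 peaks without a partner were spread almost evenly, which set the D53-only peaks of score 10 up apart from them. Averaged over 26 chromosomes, the central 50% held 73.9% ± 9.1 (SD) of the D53-only peaks and 48.2% ± 5.5 of the weaker ones. The difference of 25.7 percentage points was positive on 25 of 26 chromosomes, all but A06 (two-sided permutation p = 2e-05, the smallest that 100000 resamples can give, adjusted p = 5e-05). This too compares classes of score and was added after the data were seen. Shared peaks of score 10 up averaged 72.1% ± 15.4. The D53-only peaks lay 1.77 points above that, and were the more central set on 13 of 26 chromosomes (permutation p = 0.57, adjusted p = 0.57), so no difference in central position was detected at this score. The wide spread of the shared peaks came with chromosomes such as D08, where 37.2% of 94 shared peaks but 77.8% of 18 D53-only peaks were central, and A07, with 40.1% of 177 against 77.4% of 31.

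**Figure D3:**
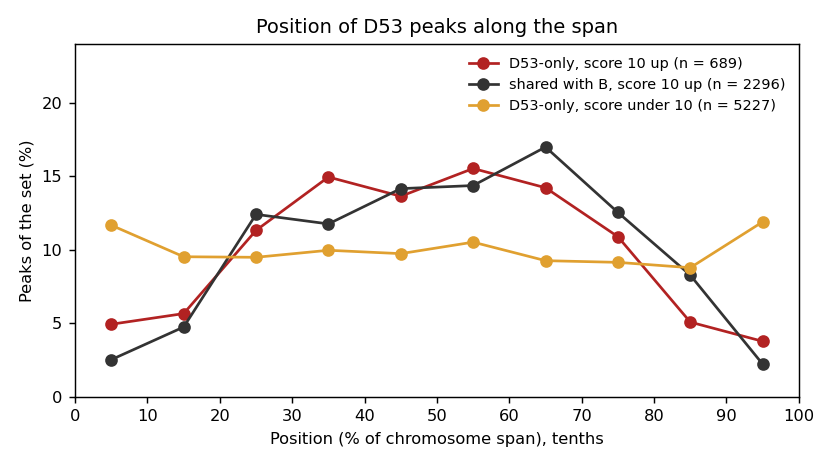
Share of each set of D53 peaks (vertical axis, %) in each 10% step of the chromosome span (horizontal axis, %), for D53-only peaks of score 10 up (red), shared peaks of score 10 up (black) and D53 peaks of score under 10 without a partner (yellow). The red and black lines lie below 6% in the first 20% of the span and above 10% from 20% to 80%, while the yellow line stays between 8.78% and 11.9% throughout.

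Of the D53-only peaks of score 10 up, 51 had another of them within 10 kb, and 377 had a peak of either list there. The sets of possible neighbours differ in size, and the numbers that their densities alone would give were not tested. With 10 kb as the largest gap allowed within a group, 638 of the 689 had no other D53-only peak of this score beside them, 21 groups held 2 and 3 groups held 3. Counting D53 peaks of any score, 295, or 42.8%, had another one within 10 kb, against 56.6% of shared peaks of score 10 up. A B peak or another D53 peak lay within 10 kb of 377, or 54.7%, and the other 312, or 45.3%, had neither. The groups of 3 were on A12 at 31469670 to 31471818 with scores of 12, 27 and 12, on A09 at 31335639 to 31340564 with scores of 13, 18 and 13, and on A09 at 5789244 to 5794958 with scores of 12, 10 and 11. The peaks on A12 had no B peak within 91471 bp. Windows of 1 Mb held at most 5, on A04 at 16000001 to 17000000 and 18000001 to 19000000 and on A07 at 46000001 to 47000000. Of the 100 kb windows in which both lists were densest, with at least 10 peaks each, 13 existed on chromosomes and they held 3 of the 689 peaks. These windows were picked for their B peaks too, so this count is not independent of how the D53-only peaks were chosen. The share of all D53 peaks in them was not computed. Positions are counted from 1 and follow the deposited lists, with the genome build not given in the sources used here. Genes at the peaks were not analysed here.

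The distance from a D53-only peak to the nearest B peak varied from 10 bp to 2015873 bp, with a median of 23303 bp (quartiles 1071 and 101923). A B peak lay within 1 kb of 163 peaks, or 23.7%, and within 10 kb of 300, or 43.5%. Within 100 bp there were 7, or 1.02%, and within 200 bp 22, or 3.19%. There were 389 that had no B peak within 10 kb, and 3 had none within 1 Mb. Weaker D53 peaks without a partner had a larger median distance, 47809 bp, and 15.9% of them had a B peak within 1 kb. At the shortest range the order was the other way, with 2.01% of the weaker peaks within 100 bp of a B peak and 3.81% within 200 bp. D53-only peaks on D chromosomes had a median distance of 43694 bp, against 19367 bp on A chromosomes. B peaks of score 15 up without a D53 partner were also unevenly split, with 71.2% on A against 60.03% of the span. Whether the distances follow the density of B peaks was not tested.

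The nearest case was on A08 at 47464359 to 47464826, where a D53 peak of score 13 ended 10 bp from a B peak of score 14. On D08 a D53 peak at 21396267 to 21396670 with a score of 11 lay 18 bp from a B peak that also scored 11. On A07 at 32745555 to 32745911 and on A02 at 23922959 to 23923273 the gap was 56 bp, and on A03 at 62944096 to 62944301 it was 67 bp. In these 5 cases the neighbouring B peak overlapped no D53 peak, so adjacent intervals were listed separately in the 2 lists. On the other side of the limit, the shared peak with the smallest overlap was on D12 at 7632626 to 7632914, with 3 bp in common and a score of 11 in both lists. At most 100 bp were in common at 25 shared peaks of score 10 up.

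Among the 163 D53-only peaks within 1 kb of a B peak, the B neighbour scored higher in 125, lower in 29 and equal in 9. The median scores were 12 for the D53 peak and 17 for its B neighbour, but the lists have no common scale. Of these B neighbours, 54.6% overlapped another D53 peak and 45.4% overlapped none. Beyond 10 kb the nearest B peak had a median score of 10, which is also the median of all B peaks on chromosomes, and 32.9% overlapped a D53 peak. The share of all B chromosome peaks that overlap a D53 peak was not computed, so these shares have no background beside them. The farthest peaks were all on D chromosomes. D12 carried 3 of the 5, at 42976243 to 42976485 with 2015873 bp to the nearest B peak, at 43288232 to 43288436 with 1738456 bp and at 15094843 to 15095366 with 936045 bp, and their scores were 11, 12 and 13. The remaining ones were at 18608396 to 18608634 on D08, with a score of 19 and 1198101 bp to B, and at 30441855 to 30442521 on D09, with a score of 18 and 803089 bp.

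**Figure D4:**
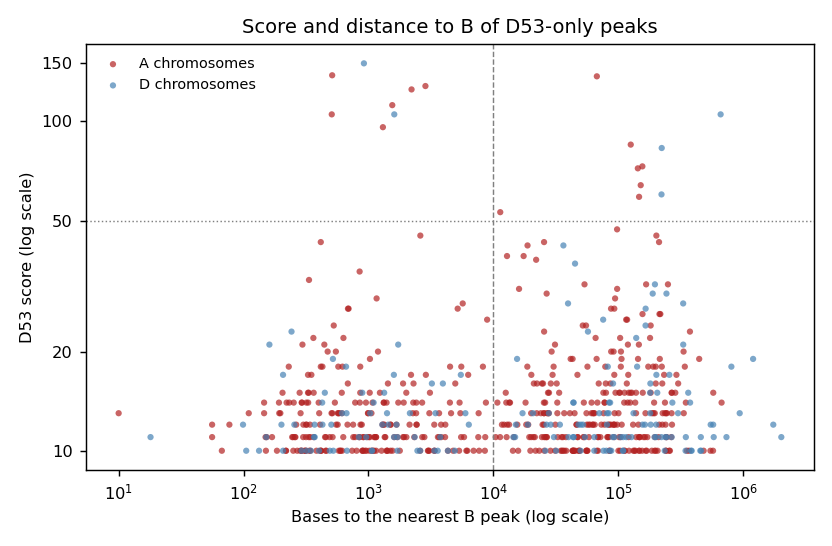
D53 score (vertical axis, log scale) against bases to the nearest B peak (horizontal axis, log scale) for the 689 D53-only peaks, A chromosomes in red and D chromosomes in blue. Above the dotted line at a score of 50, 8 peaks lie between 508 and 2856 bp from a B peak and 10 lie beyond the dashed line at 10 kb, from 11340 bp upwards.

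The 18 D53-only peaks of score 50 up fell into 2 settings, described after their values were seen. In 8 of them a B peak lay 508 to 2856 bp away, with a B score of 95 to 263, and at least 1 other D53 peak that overlapped a B peak lay within 10 kb. The highest of all was on D01 at 17204874 to 17205096, with a score of 150 and a width of 223 bp. It lay 918 bp from a D53 peak of score 225 whose B partner scored 202. The next was on A02 at 16903918 to 16904174, with a score of 138. It lay 522 bp from a D53 peak of score 300 with a B partner of 255.

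Other peaks of this kind stood within short runs of strong shared peaks. On A03 the D53-only peak at 30387593 to 30387847, with a score of 128, lay between shared D53 peaks of 148 and 230, whose B partners scored 85 and 263. On A01 at 19218216 to 19218611 a peak of score 125 followed shared peaks of 236 and 207 with B partners of 175 and 228, and a B peak of score 95 without a D53 partner lay between. On A11 at 25256543 to 25256814 a peak of score 112 lay between shared D53 peaks of 158 and 121. On A02 at 43151278 to 43151493 a peak of score 105 had 3 shared D53 peaks around it, of 127, 111 and 73.

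Some of these runs also held strong peaks listed for B alone. Around the D08 peak at 39174825 to 39175042, with a score of 105, there were B peaks of 117, 89 and 77 without a D53 partner and a shared pair scoring 153 for D53 and 194 for B. Around the A05 peak at 7457997 to 7458282, with a score of 96, B peaks of 37, 125 and 75 had no D53 partner, while shared D53 peaks of 91 and 253 had B partners of 90 and 122. Peaks of either list alone thus stood side by side within 10 kb there.

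The other 10 strong D53-only peaks had no B peak within 10 kb, and 9 of these had no other D53 peak within 10 kb either. Their scores ran from 53 to 137, and the nearest B peak, 11340 to 658731 bp away, scored only 4 to 27. The highest was on A04 at 42088659 to 42088879, with a score of 137, a width of 221 bp and 67270 bp to a B peak of score 8. On D13 the peak at 10091195 to 10091427 scored 105, with 658731 bp to a B peak of score 6 and 51570 bp to another D53 peak of score 3. On A09 at 64975922 to 64976125 the score was 85, and the next D53 peak was 960467 bp away.

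The remaining strong D53-only peaks without a B peak within 10 kb had scores of 53 to 83. They were on D07 at 17533691 to 17533939 with 83, on A08 at 10101579 to 10101818 with 73, on A11 at 36531523 to 36531755 with 72, on A09 at 32176141 to 32176491 with 64, on D05 at 14616789 to 14617018 with 60, on A06 at 84827438 to 84827663 with 59 and on A08 at 38463824 to 38464146 with 53. The A08 peak of score 53 lay just past that limit, 11340 bp from the nearest B peak and 11567 bp from the nearest D53 peak. The A11 peak was the exception with a D53 neighbour within 10 kb, a peak of score 19 at a distance of 279 bp that also lacked a B partner. Isolated peaks of this score also occurred among those with a partner, since 129 of the 394 shared peaks of score 50 up, or 32.7%, had no other D53 peak within 10 kb.

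Several chromosomes had no such strong D53-only peak. The highest score was 45 on A07 at 76745735 to 76745945, 42 on A13 at 43100506 to 43100710, and 32 on A10 at 17324201 to 17324593 and on A12 at 28307570 to 28307813. On D chromosomes it was 30 on D04 at 10127453 to 10127666 and on D10 at 36014569 to 36014875, 28 on D11 at 37463747 to 37464188 and 23 on D12 at 26899625 to 26900288. It was 21 on D02 and D06, 18 on D09 and 13 on D03. The share of D53-only peaks that scored 20 or more was 13.1% on A (69 of 525) and 12.8% on D (21 of 164).

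D53-only peaks were narrower at the median than shared peaks of the same score limit, but not than the D53 list as a whole. Their median width was 269 bp (quartiles 229 and 359), against 351 bp (267 and 558) for shared peaks of score 10 up. It was 267 bp over all D53 chromosome peaks and 243 bp (217 and 297) for the weaker D53 peaks without a partner. Of the 689, 7 had the lowest width in the chromosome list, 199 bp. Widths under 250 bp were found in 40.3% of D53-only and 18.4% of shared peaks, and widths of 1000 bp or more in 4 of 689 against 175 of 2296. A wider peak has more bases that can meet a B peak, so width is not independent of how the peaks were chosen and is given without a test. The difference in median grew with score, from 271 against 316.5 bp at scores of 10 and 11 to 253 against 367.5 bp at 20 to 49 and 236.5 against 425 bp at 50 and above. Across D53-only peaks, score and width had a Spearman rho of -0.08 (n = 689 peaks of 1 library), and across shared peaks a rho of 0.20 (n = 2296).

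**Figure D5:**
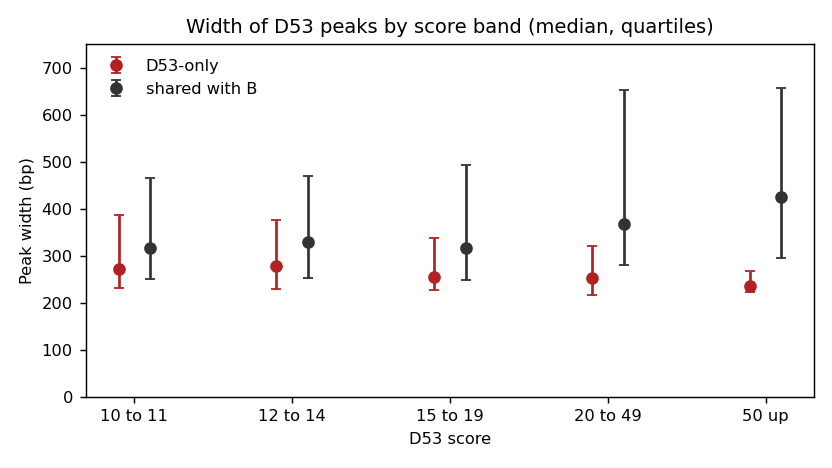
Peak width in bp (vertical axis) by band of D53 score (horizontal axis) for D53-only peaks (red) and shared peaks (black); points are medians and bars run from the lower to the upper quartile. The median of D53-only peaks goes from 271 bp at scores of 10 and 11 to 236.5 bp at 50 up, that of shared peaks from 316.5 to 425 bp.

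The widest D53-only peaks had low scores. The widest was on A08 at 74640469 to 74642257, with 1789 bp and a score of 11, followed by A09 at 24642493 to 24644076 with 1584 bp and a score of 14. Next were A05 at 64903218 to 64904333 with 1116 bp, D04 at 25265298 to 25266365 with 1068 bp and A05 at 54046381 to 54047372 with 992 bp, at scores of 15, 12 and 12. Among the narrowest, at 199 bp, the highest score was 45, on A11 at 9838853 to 9839051, where a shared D53 peak of score 48 lay 2573 bp away.

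The opposite class, chromosome peaks of score 15 up listed for B alone, is given for reference. There were 1004 of them, or 30.1% of the 3338 B chromosome peaks of that score. The share without a D53 partner over all B chromosome peaks was not computed. Their A share was 71.2% (95% Wilson interval 68.3 to 73.9), their median width 240 bp, and 62.6% (59.6 to 65.6) lay in the central 50% of the span. The median distance to the nearest D53 peak was 8734.5 bp. These values are set beside those of the D53-only peaks without a test, since the score limits of the lists are not equivalent.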

How the data were processed

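The authors deposited 1 peak list per immunoprecipitate, each called against its own input without pooling, per the peak names in the lists. The value of each peak is the authors' score as deposited, a whole number. Aligner, genome build, caller and calling threshold were not given in the sources used here. Starts were read as counted from 0, as in BED files, and printed from 1. No header states this, and if they were counted from 1 each start, width, gap and overlap shifts by 1 bp. The members stay the same, since none lies nearer than 10 bp to a B peak. Overlap meant at least 1 base in common, and distance the number of bases between peaks; the member count was checked with bedtools 2.31.1, which gave 689. The members and comparison sets were chosen with earlier results of these data known. A two-sided permutation test with 100000 resamples compared densities of the 13 A with those of the 13 D chromosomes. Paired sign flips over 13 chromosome pairs (all 8192) or 26 chromosomes (100000 drawn) compared sets. P-values were adjusted by the Benjamini-Hochberg method over 5 tests, of which the comparisons with weaker peaks were added after the data were seen. The overlap and distance step, the sign-flip test and the density test were tested on simulated data. The steps that form the A to D ratios and the central shares were not. Named peaks were the 10 of highest score, the highest of each chromosome, the 5 widest, 5 narrowest, 5 nearest to and 5 farthest from B, and the largest groups within 10 kb; of the narrowest, only the highest-scoring is described. The other peaks of score 50 up were added after their values were seen. SciPy 1.17.1, pandas 2.3.3 and NumPy 2.4.6 ran under Python 3.11.15, and figures were drawn with matplotlib 3.10.9.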

Additional observations from a re-analysis of the deposited data

How the results depend on the processing

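The number of D53-only peaks followed the score limit, with 3364 at a score of at least 5, 200 at 15, 90 at 20 and 18 at 50, and was 389 when no B peak was allowed within 10 kb. Fewer or more peaks enter there by construction. The A share was 69.7% at a score of at least 5 and 72.2% at 50, and stayed within the reported interval in the other alternatives. The density difference between A and D chromosomes kept its direction and its side of the threshold in every alternative except a score of at least 50, where 18 peaks gave 0.00504 per Mb (permutation p = 0.17). Differences from shared peaks changed sign with the setting. The log2 ratio of A to D counts differed by -0.11 at a score of at least 5 and -0.61 at 50. The central share differed by -0.16 percentage points at a score of at least 20, -0.15 at scores of 10 to 19, -1.6 without dense windows (chosen after seeing the data), -1.2 for the central 33.3% and -2.1 for the central 60% of the span. At a score of at least 5 it was -10.3 points (permutation p = 0.00048), where 3364 peaks entered, most of them of score under 10. Both differences from weaker peaks kept direction and call when the weaker peaks were cut to scores under 5 (0.84 in log2 ratio, 25.8 points in central share). The central difference also did so for the central 33.3% and 60% of the span. Other score limits, overlap rules or distances for the D53-only peaks were not tried in these comparisons. The median width was 253, 249.5 and 236.5 bp at scores of at least 15, 20 and 50. The median distance to B was 44014, 54345 and 39305 bp there, and 48616, 199842 and 1078614 bp when only B peaks of score 10, 20 or 50 up were used. The median score was 12 or 13 under each overlap rule. Unknown depth limits every statement about a missing B peak. With 1 library in each group, no replicate could be left out. No paired analysis was possible because no replicate number occurs in both D53 and B libraries.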

Other observations

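Scaffolds, which are outside the chromosomes described above, carried 903 further D53 peaks of score 10 up without a B partner, or 20.8% of the 4336 D53 scaffold peaks of that score. Scaffolds named after an A chromosome held 271 of them and those named after a D chromosome 40, and 592 were on other scaffolds. How all 4336 divide among these scaffolds was not computed, so the split cannot be read as a trait of the 903. Their median score was 13, the highest was 248 and 37 scored 50 or more, with a median width of 260 bp. For 523 of the 903 the scaffold held no B peak at all, so no distance to B could be given. The number of all D53 scaffold peaks on such scaffolds was not computed.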
